A study of Danio rerio with 14 samples.

Results

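The vitamin D genes of the zebrafish fin tip were the hydroxylase genes cyp24a1 and cyp27b1 and the receptor genes vdra and vdrb. They were taken by symbol from the deposited expression table, which held all 4 of them among 14836 genes, and all 4 passed the filter that kept 11272 genes for testing. The group was chosen by the TPM values of cyp24a1, already known to be much lower at 10 days post amputation (dpa) than at 0 dpa. Differences of cyp24a1 from 0 dpa are therefore given as a description with no test, and the tests below concern the other 3 genes and the comparisons that do not use 0 dpa.

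The samples were RNA from wild-type zebrafish (Danio rerio), taken from the last 250 µm or so of the fin rays at their distal end. The groups were 0 dpa, the day of amputation and the baseline here, and 3, 7, 10 and 14 dpa of regrowth, with 3 libraries per time and 2 at 14 dpa. The labels name the earliest regrowth time 3 dpa and the study's design text gives it as 3.5 days. The tissue of 10 animals was pooled for every library, and no drug, transgene or mutant allele is named, so p-values measure the spread between pools. The study followed regrowth of the fin skeleton and its Erk signalling. In this bulk tissue, fewer cells of a type and less RNA per cell cannot be told apart.

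Vitamin D is a steroid-like precursor that becomes a hormone by hydroxylation. Cyp27b1 makes the active hormone calcitriol, and Cyp24a1 begins the breakdown of calcitriol and of its precursor. Calcitriol binds the vitamin D receptor, a nuclear receptor that acts on DNA in a pair with a retinoid X receptor. In mammals, CYP24A1 is among the genes that calcitriol itself induces most strongly, and both enzymes are also made in skin. Calcitriol is best known for its control of calcium and phosphate balance and bone. The zebrafish receptor genes vdra and vdrb are duplicates of a single ancestral gene.

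The deposited values are named TPM by the authors. In each library the lowest values lay on even steps of 0.0624 to 0.0678 TPM, and 93.7% to 98.4% of values up to about 20 steps were within 0.1 step of a whole multiple. The step was the same in genes with long and short loci. Its ratio was 0.998 to 1.003 between the longer and shorter part of the genes at 1 step, split at their median locus length. Genes at 1 step were those with a value above 0 and under 0.1 TPM, and transcript lengths were not used. A step thus had the size of 1 read, a library held 14800000 to 16000000 steps in all, and no division by gene length showed in the values. Levels are for this reason compared between libraries and not between genes. The number of reads behind a value was taken as the value divided by the step. It was 26 to 944 for cyp24a1, 9 to 115 for cyp27b1, 5 to 34 for vdra and 2 to 17 for vdrb over the 14 libraries.

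By mean level, the gene of the activating enzyme, cyp27b1, was higher at each regrowth time than at 0 dpa. The mean of cyp24a1, the gene of the degrading enzyme, was lower at each, which was not tested. For cyp27b1 the differences at 3 and 7 dpa passed the test and those at 10 and 14 dpa did not. Transcripts of cyp27b1 rose at 3 and 7 dpa, to several times their level at 0 dpa, and fell again by 14 dpa relative to 3 dpa. The mean of cyp24a1 was 5.79 to 10.3 times higher at 0 dpa than at 3, 7 or 10 dpa, and 2.16 times higher at 0 dpa than at 14 dpa. Neither receptor gene passed the test in any of the 6 comparisons made.

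**Figure D1:**
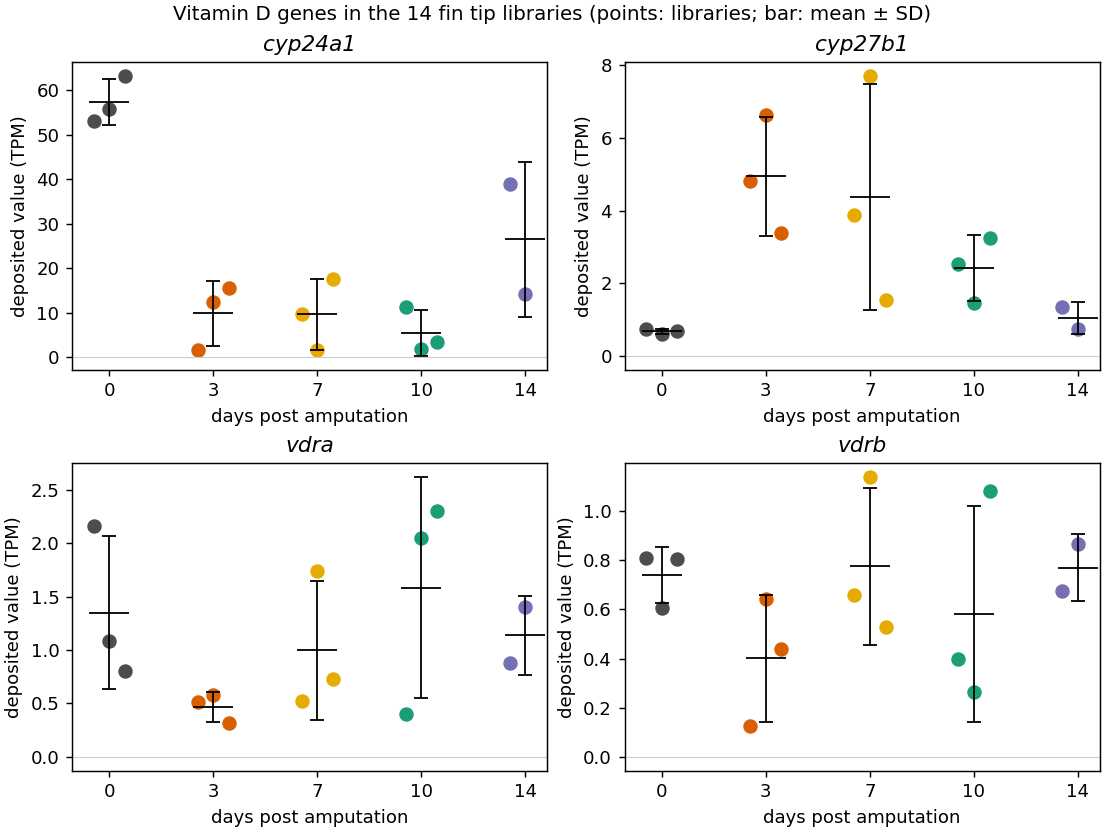
Deposited values (TPM, linear axis) of the 4 vitamin D genes in each of the 14 libraries by days post amputation, with the mean and SD of each time as a bar. The 3 libraries at 0 dpa are highest for cyp24a1 (53.1 to 63.2 TPM) and lie at 0.608 to 0.743 TPM for cyp27b1, while the receptor genes overlap between most times.

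The gene cyp24a1 was at 53.1, 55.9 and 63.2 TPM in the 3 libraries at 0 dpa. At 3 dpa its values were 1.71, 12.4 and 15.6 TPM, and at 7 dpa they were 9.73, 1.74 and 17.6 TPM. The values were 11.5, 1.86 and 3.39 TPM at 10 dpa and 38.9 and 14.3 TPM at 14 dpa. No regrowth library reached the lowest 0 dpa library, and in order of mean level the times ran 0, 14, 3, 7 and 10 dpa. The ranges of 14 and 3 dpa overlapped, as did those of 3 and 7 dpa and of 7 and 10 dpa. Transcripts of cyp24a1 averaged 5.56 ± 5.15 TPM at 10 dpa and 57.4 ± 5.24 TPM at 0 dpa (SD, n = 3 each). On the scale of log2(TPM + 1), which understates changes of low genes, the difference was -3.44 ± 0.79 (standard error), in a comparison where 2.73% of all genes tested were called lower. The group was chosen by this difference, so neither its standard error nor that share says how unusual it is. The difference was -2.28 without the 4 libraries with over 500 TPM of fosb described below, which leaves 1 library at 10 dpa. At 3 dpa the difference from 0 dpa was -2.78 ± 0.79, at 7 dpa -2.83 ± 0.79 and at 14 dpa -1.24 ± 0.89. These comparisons share the 0 dpa libraries, whose cyp24a1 values entered the choice. The standard errors and the values below without single libraries describe the spread and test nothing. Leaving out 1 library at a time gave -3.27 to -1.96 at 3 dpa, -3.42 to -2.04 at 7 dpa, -4.04 to -2.98 at 10 dpa and -1.93 to -0.55 at 14 dpa. The values nearest to 0 came without 3 dpa replicate 1, 7 dpa replicate 2, 10 dpa replicate 2 and 14 dpa replicate 2, and those farthest from it without 3 dpa replicate 3, 7 dpa replicate 3, 10 dpa replicate 1 and 14 dpa replicate 1. Without the 4 libraries high in fosb the difference at 7 dpa was -2.10.

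Among the regrowth times, cyp24a1 averaged 26.6 ± 17.4 TPM at 14 dpa (SD, n = 2) and 9.91 ± 7.28 TPM at 3 dpa (SD, n = 3). That difference, 1.55 ± 0.89 on the log2 scale, did not pass the threshold (limma moderated test, Benjamini-Hochberg adjusted p = 0.206 over all genes). Leaving out 3 dpa replicate 1 made it 0.73, leaving out 14 dpa replicate 1 made it 0.85, and leaving out 14 dpa replicate 2 made it 2.24. At 7 dpa the mean was 9.69 ± 7.93 TPM, a difference of -0.05 ± 0.79 from 3 dpa (limma, adjusted p = 0.977). The libraries of each of these pairs of times overlapped.

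Libraries of 1 time differed widely in cyp24a1. Its SD within regrowth times was 65.5% to 92.6% of the mean, against 9.13% at 0 dpa. On the log2 scale its SD within times was 1.13, larger than that of 99.6% of the genes tested, whose median was 0.28. For cyp27b1 it was 0.51, for vdra 0.45 and for vdrb 0.26.

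The gene cyp27b1 was at 0.743, 0.608 and 0.670 TPM at 0 dpa. It was at 4.83, 6.62 and 3.37 TPM at 3 dpa and at 3.88, 7.71 and 1.52 TPM at 7 dpa. At 10 dpa its values were 2.53, 1.46 and 3.25 TPM, and at 14 dpa 1.35 and 0.734 TPM. Every library at 3, 7 and 10 dpa was above all 3 libraries at 0 dpa, and a library at 14 dpa lay just under the highest of them. Those last 2 libraries, 14 dpa replicate 2 and 0 dpa replicate 1, each rested on 11 reads, so their order carries no meaning. How many of all genes have separate ranges was counted in no comparison. In order of mean level the times ran 3, 7, 10, 14 and 0 dpa. Ranges overlapped between 3 and 7 dpa, between 7 and 10 dpa and between 14 and 0 dpa, and not between 10 and 14 dpa.

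At 3 dpa cyp27b1 rose to 4.94 ± 1.63 TPM, against 0.673 ± 0.067 TPM at 0 dpa (SD, n = 3 each), a 7.34-fold ratio of means. Its values at 0 dpa rested on 11, 9 and 10 reads, and those at 3 dpa on 76, 103 and 54. Exact Poisson intervals at 95% for the 0 dpa reads were 5.5 to 19.7, 4.1 to 17.1 and 4.8 to 18.4. Counting error at 0 dpa was thus large, and the size of the ratio is uncertain. The log2 change was 1.79 ± 0.37 (limma, adjusted p = 0.00144), and 35.0% of all genes tested were called higher in this comparison. The median change over all genes was 0.24 at 3 dpa as deposited and 0.02 after median-of-ratios scaling. The rise of cyp27b1 passed the threshold in every alternative but the filter on a mean of 5 TPM, which leaves cyp27b1 out, with values from 0.80 with a pseudocount of 5 to 2.66 with a pseudocount of 0.1. Of the 3 members tested here it was the one called.

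At 7 dpa the level was 4.37 ± 3.12 TPM, against the same 0 dpa mean (SD, n = 3), a log2 change of 1.51 ± 0.37 (limma, adjusted p = 0.00883). In this comparison 21.5% of all genes were called higher, and again cyp27b1 was the 1 member called of 3 tested. Without 7 dpa replicate 2, the library highest in cyp27b1, the change was 1.07 and still passed. At 10 dpa cyp27b1 averaged 2.41 ± 0.90 TPM (SD, n = 3), with a change of 0.99 ± 0.37 from 0 dpa that missed the threshold (limma, adjusted p = 0.0929). None of the 3 members tested was called at 10 dpa, where 16.7% of all genes were, and 1 of them had an unadjusted p under 0.05. Over the alternatives the adjusted p of cyp27b1 at 10 dpa ran from 0.0213 to 0.279. It passed in 5 of them, namely with a pseudocount of 0.1, with library weights, with only the libraries of both times, and without 7 dpa replicate 2 or 3.

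By 14 dpa cyp27b1 was at 1.04 ± 0.43 TPM (SD, n = 2), 0.27 ± 0.42 above 0 dpa on the log2 scale (limma, adjusted p = 0.692). None of the 3 members tested was called at 14 against 0 dpa, where 11.2% of all genes were, and none had an unadjusted p under 0.05. From 3 dpa it fell by 1.52 on the log2 scale (standard error 0.42, limma, adjusted p = 0.0130). It was 1 of 4 members called in that comparison, where 14.3% of all genes were called lower. Without 14 dpa replicate 2 the change was -1.30 (adjusted p = 0.113), with 1 library at 14 dpa assumed to vary like the other times. Between 7 and 3 dpa none of the 4 members was called, and none had an unadjusted p under 0.05 (limma, 16.7% of all genes called). The locus of cyp27b1 overlaps that of another protein-coding gene in the RefSeq annotation of the GRCz12tu assembly. No source used here says whether counting used strand. Reads of those genes may thus not be told apart where their exons overlap, which was not examined. The loci of cyp24a1, vdra and vdrb overlap no other gene there.

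Dividing cyp24a1 by cyp27b1 within each library removes anything that scales both values alike. The quotient was 71.5, 92.0 and 94.4 at 0 dpa and 0.355, 1.88 and 4.63 at 3 dpa. It was 2.51, 0.226 and 11.6 at 7 dpa, 4.53, 1.27 and 1.04 at 10 dpa, and 28.9 and 19.5 at 14 dpa. The libraries of 14 dpa lay below all those of 0 dpa and above all those of 3, 7 and 10 dpa. Since no division by gene length showed in the values, the quotient is read as change between libraries and not as the balance of molecules. It was given no test, because it contains the difference for which cyp24a1 was chosen.

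**Figure D2:**
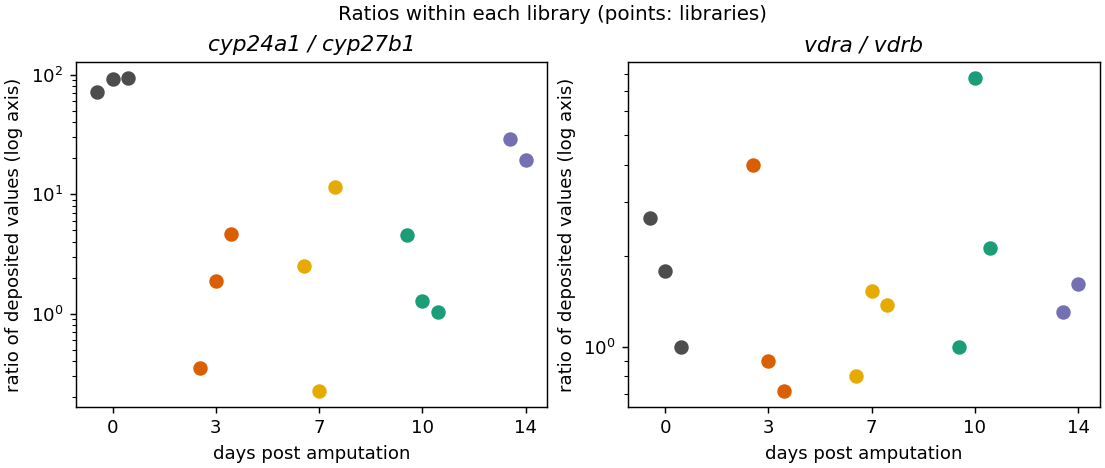
Ratio of the deposited values of cyp24a1 to cyp27b1 (left) and of vdra to vdrb (right) within each of the 14 libraries, on log axes, by days post amputation. The left ratio is 71.5 to 94.4 at 0 dpa, at most 11.6 at 3, 7 and 10 dpa and 19.5 to 28.9 at 14 dpa, while the right ratio overlaps between times.

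The receptor gene vdra was at 2.16, 1.08 and 0.804 TPM at 0 dpa and at 0.508, 0.577 and 0.312 TPM at 3 dpa. It was at 0.526, 1.74 and 0.728 TPM at 7 dpa, at 0.399, 2.05 and 2.30 TPM at 10 dpa and at 0.876 and 1.4 TPM at 14 dpa. All 3 libraries at 3 dpa were below all 3 at 0 dpa, in a comparison where 19.6% of all genes were called lower. That share counts genes by adjusted p, as does the one at 14 against 3 dpa below. The share of all genes with separate ranges was not counted. By mean the times ran 10, 0, 14, 7 and 3 dpa, with neighbours in that order overlapping. Transcripts of vdra averaged 0.466 ± 0.138 TPM at 3 dpa and 1.35 ± 0.716 TPM at 0 dpa (SD, n = 3 each). The log2 difference was -0.64 ± 0.33 and did not pass (limma, adjusted p = 0.115). It passed in 3 of the alternatives, with quantile normalization (-0.87, adjusted p = 0.0212), with only the libraries of both times (adjusted p = 0.0414) and without 10 dpa replicate 1 (adjusted p = 0.0445). At 7, 10 and 14 dpa the differences from 0 dpa were -0.24 ± 0.33, 0.08 ± 0.33 and -0.10 ± 0.37 (limma, adjusted p = 0.617, 0.897 and 0.870). At 10 dpa the difference passed with library weights (0.55, adjusted p = 0.0136), and without the 4 libraries high in fosb it was -0.47 (adjusted p = 0.234). Against 3 dpa, vdra at 14 dpa differed by 0.54 ± 0.37 (limma, adjusted p = 0.292), with both 14 dpa libraries above the 3 dpa libraries and 19.8% of all genes called higher. That comparison passed without the 4 libraries high in fosb (0.54, adjusted p = 0.0354). At 7 against 3 dpa the difference was 0.40 ± 0.33 (limma, adjusted p = 0.447).

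The duplicate vdrb was at 0.810, 0.608 and 0.804 TPM at 0 dpa and at 0.127, 0.641 and 0.437 TPM at 3 dpa. It was at 0.657, 1.14 and 0.529 TPM at 7 dpa, at 0.400, 0.265 and 1.08 TPM at 10 dpa and at 0.674 and 0.866 TPM at 14 dpa. It reached 1 TPM in 2 libraries, the fewest that the filter allows. These were 7 dpa replicate 2 and 10 dpa replicate 3, both among the 4 libraries high in fosb. By mean the times ran 7, 14, 0, 10 and 3 dpa, between 0.775 TPM and 0.402 TPM, and neighbours in that order overlapped. At 3 dpa vdrb differed from 0 dpa by -0.33 ± 0.21 (limma, adjusted p = 0.198), and by -0.56 with quantile normalization, where it passed (adjusted p = 0.0246). All other comparisons of vdrb had an adjusted p of at least 0.275 (limma) and log2 differences between -0.17 and 0.35. As for vdra, both 14 dpa libraries were above the 3 dpa libraries, though narrowly (0.674 against 0.641 TPM). In that comparison 19.8% of all genes were called higher.

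Counting error was large for both receptors. At 10 dpa vdra rested on 6, 31 and 34 reads, with exact Poisson intervals at 95% of 2.20 to 13.1, 21.1 to 44.0 and 23.6 to 47.5, which cover counting error only. The 2 higher libraries thus lay outside the interval of the lowest. For vdrb all 14 libraries had fewer than 20 reads, and 3 dpa replicate 1 had 2 reads with an interval of 0.242 to 7.23. Salmon divides reads between similar transcripts by estimation, so values of vdra and vdrb would be uncertain where their sequences match. Both genes lay within 0.02 step of a whole number of reads in all 14 libraries, and shared reads were not tested. The quotient of vdra to vdrb ran from 0.714 to 7.75, and its ranges overlapped between all 5 times.

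The order of the libraries within each time was compared with that of fosb, an immediate early gene that responds within minutes to a stimulus. Transcripts of fosb were at 1348 TPM in 0 dpa replicate 1, 1702 TPM in 7 dpa replicate 2, and 886 and 1343 TPM in 10 dpa replicates 2 and 3. The other 10 libraries had 23.1 to 144 TPM. Those 4 libraries also stood apart from the rest on the second principal component of all genes. There are 13 pairs of libraries of the same time. In 12 of 13 the library with more fosb had less cyp24a1, and 6.88% of the other genes tested had as many opposite pairs or more. At 10 dpa cyp24a1 was at 1.86 and 3.39 TPM in the high fosb libraries and at 11.5 TPM in the other, and at 7 dpa it was at 1.74 TPM in the high one and at 9.73 and 17.6 TPM in the others. At 3 dpa its lowest value, 1.71 TPM, came with 102 TPM of fosb, and the others with 41.2 and 23.1 TPM. The gap was narrow at 0 dpa, with cyp24a1 at 53.1 TPM in the high fosb library and at 55.9 and 63.2 TPM in the others.

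For vdra the order was the same as for fosb in 11 of 13 pairs, as it was in at least as many pairs for 20.3% of the other genes. Its highest library at 0, 7 and 10 dpa was in each case the one highest in fosb at that time. For cyp27b1 and for vdrb the count was 9 of 13 pairs, reached or passed by 40.5% of the other genes. The pairs were examined after the values were seen, are not independent, and were given no test. The part of this library difference in the changes over time was not tested beyond leaving out the 4 libraries. Without them cyp27b1 rose at 3 dpa by 1.82 (limma, adjusted p = 0.00077) and at 7 dpa by 1.1 (limma, adjusted p = 0.0336).

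**Figure D3:**
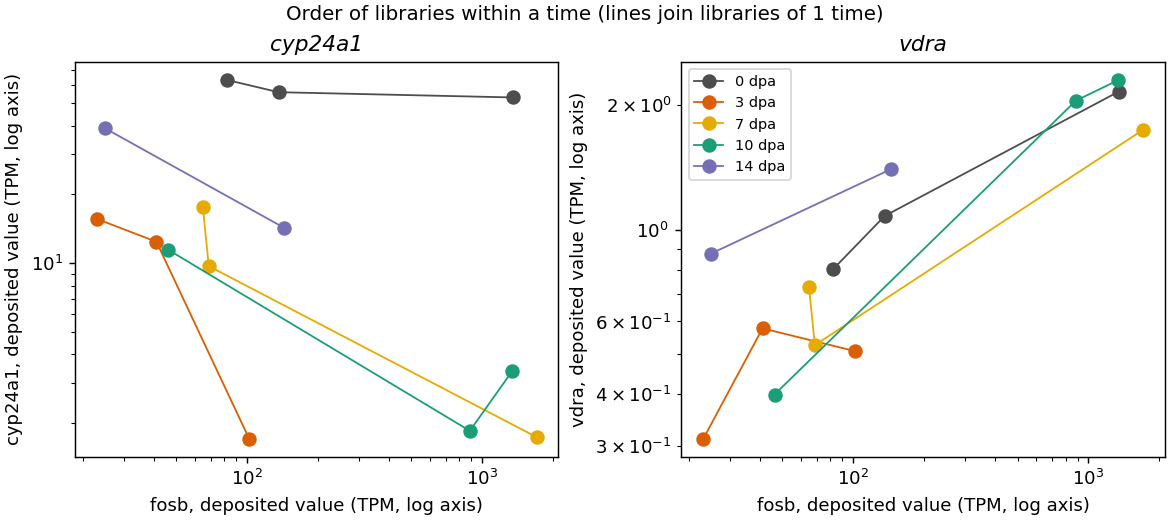
Deposited values (TPM) of cyp24a1 (left) and vdra (right) against those of fosb in the 14 libraries, both axes logarithmic, with lines joining libraries of the same time. Within times cyp24a1 mostly falls along the fosb axis (12 of 13 pairs in opposite order), and vdra mostly climbs along it (11 of 13 pairs in the same order).

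Markers of skin cells, macrophages and osteoblasts, in which these enzymes or receptors are known in mammals, also moved with time. At 3 against 0 dpa, where 19.6% of all genes were called lower and 35.0% higher, all 8 superficial epidermis markers tested fell, and their summed level was 7063 to 9896 TPM at 3 dpa and 17960 to 23620 TPM at 0 dpa. Of 14 macrophage markers 7 fell and none rose, with sums of 1963 to 2265 TPM at 3 dpa and 6640 to 8341 TPM at 0 dpa. Largest in this sum were cd74a, at 856 to 4257 TPM over the 14 libraries, and cd74b, at 602 to 2949 TPM. No other macrophage marker was above 365 TPM, and the median log2 change of the 14 markers was -0.64. Of 6 basal epidermis markers 3 fell, with sums of 2717 to 4072 TPM at 3 dpa and 4340 to 9989 TPM at 0 dpa. Of 9 osteoblast markers 6 rose, with sums of 12850 to 12970 TPM at 3 dpa and 227 to 369 TPM at 0 dpa. The superficial epidermis sum was 12470 to 17810 TPM at 7 dpa, 13420 to 19440 TPM at 10 dpa, when cyp24a1 was lowest, and 19040 to 20010 TPM at 14 dpa. The osteoblast sum was 8341 to 11710 TPM at 7 dpa, 6880 to 8951 TPM at 10 dpa and 2334 to 2692 TPM at 14 dpa. Most of that sum was col10a1a, a collagen X gene, with a mean of 12420 TPM at 3 dpa and 204.7 TPM at 0 dpa. The median log2 change of the 9 osteoblast markers from 0 dpa was 2.02 at 3 dpa, 3.50 at 7 dpa, 3.07 at 10 dpa and 2.09 at 14 dpa.

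Of 10 analysed markers of ionocytes, the salt-transporting skin cells, 4 were tested. At 3 against 0 dpa 1 of them fell, the carbonic anhydrase gene ca2, with a mean of 450.8 TPM at 3 dpa and 987 TPM at 0 dpa. The summed level was 457 to 662 TPM at 3 dpa, 694 to 1531 TPM at 7 dpa, 706 to 1314 TPM at 10 dpa and 1079 to 1422 TPM at 14 dpa, against 780 to 1280 TPM at 0 dpa. Most of this sum was ca2, at 336 to 1426 TPM over all libraries, followed by atp6v1aa at 97.8 to 146 TPM. No other ionocyte marker was above 6.24 TPM. At 14 against 3 dpa 3 of the 4 rose, where 19.8% of all genes did. The ionocyte regulators foxi3a and foxi3b were under the filter, at 0 to 0.875 and 0 to 0.742 TPM. The part of any of these cell types in the levels of the vitamin D genes was not tested.

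The genes most like each member were taken as the 5 highest Pearson correlations of log2(TPM + 1) over the 14 libraries, which share time and library effects, among 8132 or 8133 genes with a mean of at least 5 TPM. They are a description with no test. Nearest to cyp24a1 were ankha (r = 0.927), a gene of the pyrophosphate exporter family that restrains mineralisation, ascc1 (0.901), the ribosome assembly GTPase gene gtpbp4 (0.890), the mitochondrial import receptor gene tomm20a (0.881) and the epithelial splicing factor gene esrp2 (0.880). The mean of ankha was 143.9 TPM at 0 dpa, 74.5, 74.9 and 75.1 TPM at 3, 7 and 10 dpa and 135 TPM at 14 dpa. Like cyp24a1 it was highest at 0 dpa and next at 14 dpa, with a smaller span.

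Nearest to cyp27b1 were clstn1 (r = 0.927), the basement membrane gene fras1 (0.916), the protease gene bace1 (0.911), the collagen IX gene col9a1a (0.909) and the secreted signalling cofactor gene scube3 (0.908). The fras1 mean was 41.5 TPM at 0 dpa, 373 TPM at 3 dpa, 199 TPM at 7 dpa, 149 TPM at 10 dpa and 61.9 TPM at 14 dpa. Nearest to vdra were mhc2dbb (0.978), an antigen presentation gene, the membrane fusion gene stx8 (0.966), fam83fb (0.962), the exocyst gene exoc7 (0.959) and rel (0.958), of the NF-κB family. Likeness to vdrb was weaker, with nudt17 (0.773), egr2a (0.764), the receptor gene erbb2 (0.761), the prostaglandin receptor gene ptger2a (0.751) and egr3 (0.748). Between members, r was -0.69 for cyp24a1 with cyp27b1 and 0.51 for vdra with vdrb. It was -0.18 for cyp24a1 with vdra and 0.22 for cyp24a1 with vdrb. For cyp27b1 it was -0.25 with vdra and -0.04 with vdrb. The values of cyp24a1 include those by which the group was chosen, and the share of all genes with such an r was not counted.

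Of the genes that supply vitamin D, 7 of 14 listed were analysed and 4 passed the filter. The gene dhcr7 encodes the enzyme that turns the vitamin D precursor into cholesterol. It was at 3.87, 3.87 and 3.68 TPM at 3 dpa, against 11.8, 11.4 and 27.9 TPM at 0 dpa, and at 33.2 and 17.7 TPM at 14 dpa. All 3 dpa libraries were below all others. It fell by 1.79 at 3 dpa on the log2 scale (standard error 0.35, limma, adjusted p = 0.000944). At 14 dpa it rose over 3 dpa by 2.40 ± 0.39 (limma, adjusted p = 0.000454). The sterol hydroxylase gene cyp27a1.4 rose at 3 dpa to 2.77 ± 0.65 TPM, against 0.629 ± 0.744 TPM at 0 dpa (SD, n = 3 each, limma, adjusted p = 0.0233). The disulfide isomerase gene pdia3, whose protein has been described as a membrane receptor for calcitriol, rose at 3 dpa by 0.90 ± 0.19 (limma, adjusted p = 0.00161). The remaining gene tested, cyp3a65, was called in no comparison. Of these 4 genes 2 rose and 1 fell at 3 against 0 dpa, beside 35.0% and 19.6% of all genes. Their median log2 change there was 0.24, and that over all genes was also 0.24. At 14 against 3 dpa 1 of the 4 rose, beside 19.8% of all genes. The genes gc, of the carrier protein of vitamin D in blood, and lrp2a, of its uptake receptor, were under the filter.

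The retinoid X receptors are the partners of the vitamin D receptor. All 6 genes were tested, and rxrab was the only call in the 6 comparisons. It was 1 of 6 called lower at 3 against 0 dpa, near the 19.6% of all genes. The level of rxrab was 1.08 ± 0.594 TPM at 3 dpa and 3.14 ± 1.67 TPM at 0 dpa (SD, n = 3 each), a log2 change of -0.95 ± 0.36 (limma, adjusted p = 0.0390). These low values overlapped between the times, with 1.73 TPM in 3 dpa replicate 2 and 1.69 TPM in 0 dpa replicate 1. In the same comparison rxraa differed by 1.16 ± 0.48 (limma, adjusted p = 0.0573), and 3 of the 6 genes had an unadjusted p under 0.05. The median log2 change of the 6 was 0.04, against 0.24 over all genes.

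Calcium and phosphate genes changed in larger numbers. Of 40 listed, 27 were analysed and 15 passed the filter. The stanniocalcin gene stc1l passed it only through 3 dpa, the time when it is high, and is left out of the counts that follow. Of the other 14 genes 9 rose and 2 fell at 3 against 0 dpa, beside 35.0% and 19.6% of all genes. Their median log2 change was 1.15, against 0.24 over all genes. At 7 dpa 10 rose and 1 fell, beside 21.5% and 9.07% of all genes, with a median of 1.17 against 0.19. At 10 dpa 7 rose, beside 14.0% of all genes, with a median of 0.70 against 0.16. At 14 dpa 5 rose, beside 10.1% of all genes, and the median of 0.45 was close to the 0.30 over all genes. These comparisons share the 0 dpa libraries. At 14 against 3 dpa 5 fell and 2 rose, beside 14.3% and 19.8% of all genes, with a median of -0.41 against 0.05 over all genes.

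Among the hormone genes, pthlha, of a parathyroid hormone-like protein, was at 18.6 ± 3.05 TPM at 3 dpa and 2.58 ± 0.989 TPM at 0 dpa (SD, n = 3 each), a rise of 2.48 ± 0.22 (limma, adjusted p = 1.74e-06). The stanniocalcin genes, whose hormones limit calcium uptake in fish, include stc1, which rose at 3 dpa by 1.57 ± 0.28, and stc2a, which rose by 1.02 ± 0.25. Transcripts of stc1l were at 3.25, 0.834 and 1.94 TPM at 3 dpa, against 0.270, 0 and 0 TPM at 0 dpa, and at most 0.536 TPM in the other libraries. At 14 against 3 dpa stc1 fell by 1.53, while stc2a differed by 0.51 and was not called. The genes fgf23, pth1a, pth1b and casr, of phosphate and calcium control, were under the filter.

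Among the carriers and calcium binders, calb2a, of the calcium-binding protein calretinin, was at 9.75 ± 2.16 TPM at 3 dpa and 0.180 ± 0.103 TPM at 0 dpa (SD, n = 3 each). Its rise was 3.17 ± 0.22 (limma, adjusted p = 1.95e-07), and at 14 against 3 dpa it fell by 2.32. The calcium pump gene atp2b1a rose at 3 dpa by 1.71 ± 0.47 and at 7 dpa by 1.34 ± 0.47. Its values at 7 dpa were 32.2, 75.8 and 21.8 TPM, highest in replicate 2, the library high in fosb. At 0 dpa they were 19.2, 13.8 and 10.8 TPM. The phosphate exporter gene xpr1b rose at 3 dpa by 1.31 ± 0.14, the sodium-phosphate carrier gene slc34a2b by 1.28 ± 0.33, and enpp1, which makes pyrophosphate, by 1.96 ± 0.13. The phosphate carrier genes slc20a1b and slc20a1a fell at 3 dpa, by 1.52 and by 0.71. The ranges of slc20a1a overlapped, with 11.4 TPM in 3 dpa replicate 3 and 9.91 TPM in 0 dpa replicate 3. Transcripts of slc20a1b were at 613 ± 88.8 TPM at 3 dpa and 1759 ± 279 TPM at 0 dpa (SD, n = 3 each).

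**Figure D4:**
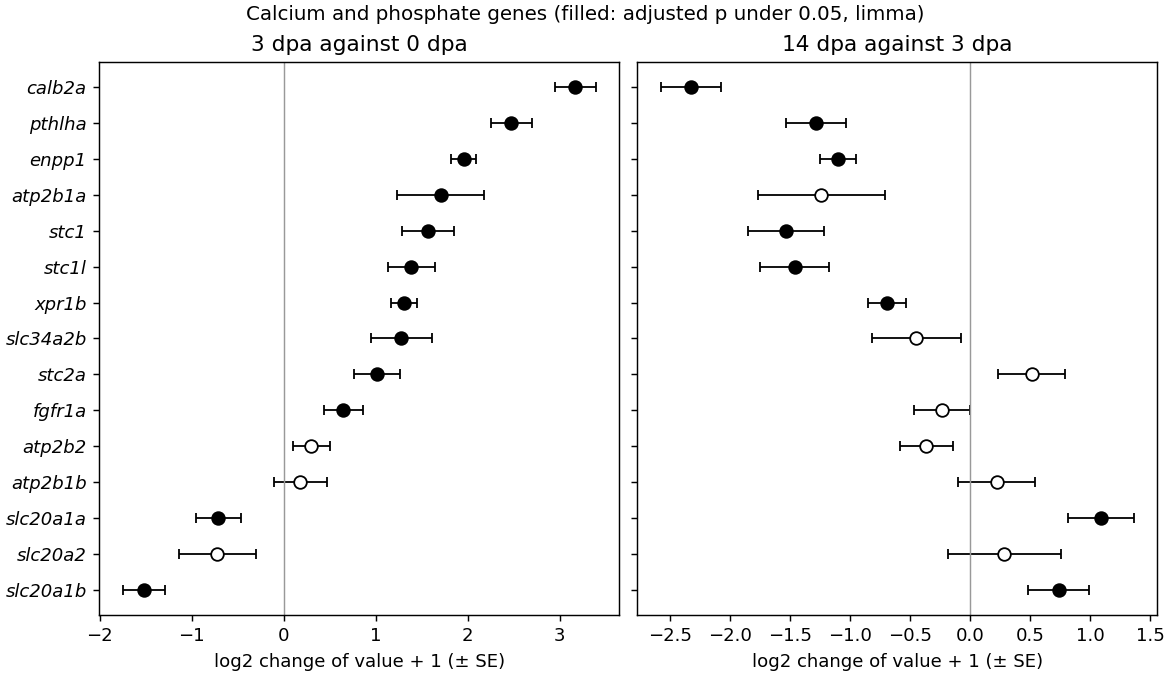
Log2 changes (± standard error) of the 15 calcium and phosphate genes tested, at 3 against 0 dpa (left) and 14 against 3 dpa (right), in the order of the left panel, with filled points for an adjusted p under 0.05 in limma. On the left calb2a is highest (3.17) and slc20a1b lowest (-1.52), and on the right 6 genes, stc1l among them, are called lower and 2 higher.

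Bone genes that are targets of the vitamin D receptor in mammals were tested for 6 of 7 listed. All of these 6 but lrp5 are also among the osteoblast markers above, so the counts here are not separate from those. At 3 against 0 dpa spp1, of osteopontin, rose by 2.02 ± 0.17 and the bone regulator runx2b by 1.08 ± 0.25, and the other 4 were not called. These 2 of 6 were near the 35.0% of all genes called higher. At 7 dpa bglap, of osteocalcin, rose by 1.70 ± 0.44, spp1 by 3.50 ± 0.17, runx2b by 1.31 ± 0.25 and the Wnt coreceptor gene lrp5 by 0.88 ± 0.29, which makes 4 of 6 beside 21.5% of all genes. At 10 dpa 3 rose, beside 14.0% of all genes, and at 14 dpa 1 rose, beside 10.1%, again spp1 (2.62 ± 0.19). The bglap means were 1.01 TPM at 0 dpa, 0.314 TPM at 3 dpa, 6.29 TPM at 7 dpa, 9.25 TPM at 10 dpa and 3.54 TPM at 14 dpa. Its mean was thus lowest at 3 dpa and highest at 10 dpa.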

How the data were processed

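RNA of 14 fin tip libraries was read from the single table that the authors deposited, in TPM per gene, 1 column per library. Per the submitters' processing notes, the tools were Salmon 1.4.0, cutadapt 3.5 and Trim Galore 0.6.7, and the build was danRer11. No source used here gives the step from transcripts to genes. Columns were matched to libraries by the library names in the labels. No coordinates or sequences are printed.

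The filter was a value of 1 TPM or more in 2 or more libraries, and log2(TPM + 1) was fitted with limma 3.58.1 in R 4.3.3, with 1 mean per time over all 14 libraries and variances that followed mean expression. Tests were two-sided, adjusted by Benjamini-Hochberg over 11272 genes, with a threshold of 0.05. The fit was tried on simulated data with independent normal noise for each gene and changes added only to genes of higher mean level. Those data held no shared library effect and no counting error, so they cannot show how the fit behaves for the members. Read depth was taken from the step of the low values, which are not exact reads in every gene, so no count test was made.

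The members, the gene lists, the naming rule (members, list genes called, 5 most alike genes) and the alternatives were chosen with earlier results of these data known. Library order against fosb and leaving out 4 libraries were added after seeing the values. The marker lists of superficial and basal epidermis, macrophages, ionocytes, osteoblasts and immediate early genes were given by sums and counts. At 3 against 0 dpa 4 of 8 immediate early genes fell and none rose, beside 19.6% and 35.0% of all genes. Their sums were 1476 to 2152 TPM at 3 dpa and 2027 to 5099 TPM at 0 dpa, where replicate 1 was high in fosb. The list of receptor coactivators and corepressors is not reported here.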

Additional observations from a re-analysis of the deposited data

How the results depend on the processing

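Of 564 values of the 4 genes under the alternatives, 527 kept their direction and side of the threshold or, where not tested, their value within 1 SD. The count includes runs that cannot move a log2 change, such as leaving out a library of a time outside the comparison. For cyp24a1 against 0 dpa, judged by its value alone, such runs were bound to count as kept. The count is thus no measure of robustness. Apart from the turned signs given last, the values that were not kept are the following, as log2 changes, and the cause was not tested. At 3 against 0 dpa, quantile normalization gave -0.87 for vdra and -0.56 for vdrb, and the libraries of both times alone gave -0.64 for vdra, all passing. At 10 against 0 dpa, cyp27b1 passed with a pseudocount of 0.1 (1.63), library weights (0.71) and the libraries of both times alone (0.99), vdra passed with library weights (0.55), and cyp24a1 was -2.28 without the 4 libraries high in fosb. At 14 against 3 dpa vdra passed without those 4 (0.54). Leaving out 1 library let vdra pass at 3 dpa (without 10 dpa replicate 1, adjusted p = 0.0445) and cyp27b1 at 10 dpa (without 7 dpa replicate 2 or 3, adjusted p = 0.0321 each), and lost cyp27b1 at 14 against 3 dpa (without 14 dpa replicate 2, adjusted p = 0.113). A filter on a mean of 5 TPM leaves cyp27b1, vdra and vdrb out and gives them no value. The gene vdrb also has no value without 7 dpa replicate 2, without 10 dpa replicate 3 or without the 4 libraries high in fosb. It was then under the filter, so it was not checked without those libraries.

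Leaving out 1 library at a time gave -0.81 to -0.41 for vdra at 3 dpa, 0.82 to 1.21 for cyp27b1 at 10 dpa, and -1.74 to -1.30 for cyp27b1 at 14 against 3 dpa. Counts of genes called over the whole table ran from 1196 to 2620 at 10 dpa, 177 to 1984 at 14 dpa and 2526 to 4099 at 14 against 3 dpa, against 1885, 1265 and 3842 with all libraries. With library weights the counts were 5349 at 7, 6433 at 10 and 4985 at 14 dpa, against 3442, 1885 and 1265, and 3091 at 7 against 3 dpa, against 1883. At 14 dpa they were 524 with median-of-ratios scaling, 409 with quantile normalization, 252 with the libraries of both times alone and 3459 without the 4 libraries.

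In 24 cases a change that did not pass before or after turned its sign. At 7 against 0 dpa vdrb was -0.0932 with median-of-ratios scaling, -0.335 with quantile normalization and -0.00712 with library weights. At 10 against 0 dpa vdra was -0.0402 with median-of-ratios scaling, -0.271 with quantile normalization and -0.469 without the 4 libraries. At 14 against 0 dpa vdra was 0.0507 with library weights and 0.131 without the 4 libraries, and vdrb was -0.11 with median-of-ratios scaling and -0.227 with quantile normalization. At 7 against 3 dpa cyp24a1 was 0.233 with library weights and 0.74 without the 4 libraries. The remaining turns came from leaving out 1 library. The ranges were -0.0407 to 0.115 for vdrb at 7 dpa and -0.142 to 0.478 for vdra at 10 dpa. At 14 dpa they were -0.282 to 0.131 for vdra and -0.0541 to 0.103 for vdrb. At 7 against 3 dpa they were -0.868 to 0.74 for cyp24a1 and -0.724 to 0.17 for cyp27b1. The ranges of vdrb hold no run without 7 dpa replicate 2 or 10 dpa replicate 3, which put it under the filter.

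Same-numbered libraries of different times had a median correlation of -0.10 of their deviations (26 pairs, -0.77 to 0.57), so the numbers were not taken to pair them. The replicate block gave 5916 genes at 3 dpa, against 6159 without it, and changed no call of a member. At this depth counting error is large for both receptor genes and for cyp27b1 at 0 dpa. For vdra the higher libraries at 10 dpa also lay outside the counting interval of the lowest.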
